A study of Mus musculus with 4 samples.

Results

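Collagen genes were described in single-cell libraries of mouse primary spermatogonial cultures. A gene was a member if its symbol in the deposited gene list consisted of Col, a number, the letter a and a second number, which gave 44 of 32285 genes. The members were sorted by role into 11 fibrillar collagens, 6 chains of the basement membrane network, 6 beaded filament chains, 9 fibril-associated collagens, 3 short-chain network collagens, 1 anchoring fibril collagen, 2 multiplexins, 4 transmembrane collagens and 2 others. The cultures held 2 kinds of cells. Thy1+ cells, enriched in spermatogonia, came from 3 male mice at postnatal day 6, and the feeder layer below them was the mouse embryonic fibroblast line STO. The cultures received PBS (vehicle) or 1 μg/mL extracellular vesicles (EVs) isolated from the testes of postnatal day 7 C57BL/6 mice, for 3 days. There were 2 libraries per arm, and both arms shared the feeder layer and the Thy1 selection. Counts were at hand for both vehicle libraries and for EV 1, and EV 2 was not analysed here. With a single EV library, a difference between the arms carries no replicate check. The feeder layer is 1 established line, and STO cells are not the fibroblasts of a testis. Cells were classed by marker counts, which cannot separate STO cells from somatic testis cells among the Thy1+ cells. The part of such cells in the collagen levels was not tested.

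Collagens are secreted or membrane-bound proteins that assemble from chains wound into a triple helix. Fibrillar types form the tensile fibrils of connective tissue, type IV forms the sheet of the basement membrane on which spermatogonia rest in the seminiferous tubule, and type VI forms beaded filaments between cell surfaces and fibrils. Transmembrane collagens stay anchored in the cell that makes them and take part in its adhesion. Fibroblasts are the classic source of the fibrillar types.

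Cells were put into classes without use of any collagen. The feeder class held cells with at least 2 UMIs (unique molecular identifiers, which mark single RNA molecules) of Sparc and Dcn and more of these than of Dazl, Tex15, Stk31 and Epcam. The germ class held the converse. After filtering, the feeder class counted 2129, 2249 and 2203 cells in vehicle 1, vehicle 2 and EV 1, and the germ class 4431, 4790 and 227 cells. Another 1703, 1598 and 2349 cells reached neither rule and are called unassigned. The summed UMIs of the feeder class were 8959169, 10104911 and 6160875, against 9482816, 11107531 and only 325611 in the germ class. The median UMIs of a feeder cell were 3780, 4067 and 2550, so feeder cells of EV 1 were the shallower ones. The germ marker list summed to 510–527 CPM (UMIs scaled to a class total of 1000000) in the germ class and to 2.92–15.2 CPM in the feeder class. Of 8 fibroblast markers, 7 or 8 were detected in the feeder class of each library, with Lum, a proteoglycan of collagen fibrils, at 0 in vehicle 1. In the germ class 6 or 7 were detected. The list summed to 10750–14395 CPM in the feeder class and to 882–2580 CPM in the germ class. Of the lists for other testis cells, those for Leydig, peritubular myoid, macrophage and endothelial cells summed to 2.27–28.2 CPM in either class, and the macrophage list stood at 22.6 CPM in feeder cells of EV 1 against 12.1 and 11.2 in the vehicle libraries. The Sertoli list summed to 289–310 CPM in feeder cells, above these other lists. Of its 6 genes, 4, 5 and 3 were detected there in vehicle 1, vehicle 2 and EV 1. In feeder cells Dhh was at 0 in every library, Amh in vehicle 1 and EV 1, and Cldn11 in EV 1. The part of these cells in the collagen values was not tested.

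Collagen transcripts were mostly found in cells of the feeder class. In feeder cells the 44 members took 0.130%, 0.138% and 0.101% of all UMIs in vehicle 1, vehicle 2 and EV 1 (95% exact binomial intervals 0.127–0.132, 0.136–0.140 and 0.0983–0.103). In germ cells they took 0.0367%, 0.0361% and 0.0467%, the last with an interval of 0.0396–0.0547. The feeder share was thus above the germ share in each library, and the feeder share of EV 1 was below both vehicle libraries. These intervals, like all those below, cover counting error only. Of all collagen UMIs of a library, feeder cells held 64.5%, 66.3% and 58.4%, germ cells 19.3%, 19.1% and 1.43%, and unassigned cells 16.2%, 14.6% and 40.2%. All 44 members had at least 1 UMI. The type I and type III chains Col1a2, Col3a1 and Col1a1 together took 41.4%, 40.9% and 32.7% of the collagen UMIs of feeder cells. In germ cells of the vehicle libraries the leading 3 were instead Col13a1, Col18a1 and Col25a1, with 45.9% and 47.4%. These are shares of UMIs and not levels per length. The counts may include reads from introns, a setting not given in the sources used here, so that genes spanning more sequence can gain UMIs from unspliced RNA, and that part was not tested. Levels are therefore compared between libraries or classes for 1 gene at a time.

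Feeder and germ cells were then compared within the 3 libraries with edgeR's quasi-likelihood test on summed counts, 6 sums in all, with p-values adjusted over 15545 genes (Benjamini-Hochberg). The question was which collagens belong to which side of the co-culture. Of 33 members with enough counts, 23 were higher in feeder cells, 8 were higher in germ cells and 2 (Col26a1, adjusted p = 0.0787, and Col9a3, adjusted p = 0.597) passed in neither direction. Of all genes tested, 40.3% were higher in feeder cells and 38.9% in germ cells. The other 11 members were too rare for the fit. The titles call the libraries biological replicates and the study describes them as independent, while the Thy1+ cells are said to come from 1 set of 3 mice, and the p-values measure the spread between these 3 libraries. The scaling matters for the smallest differences. With total UMIs in place of TMM factors the median log2 ratio of all genes moved from 0.03 to −0.39, the shares of all genes became 31.4% and 50%, and 21 and 9 members were called.

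**Figure D1:**
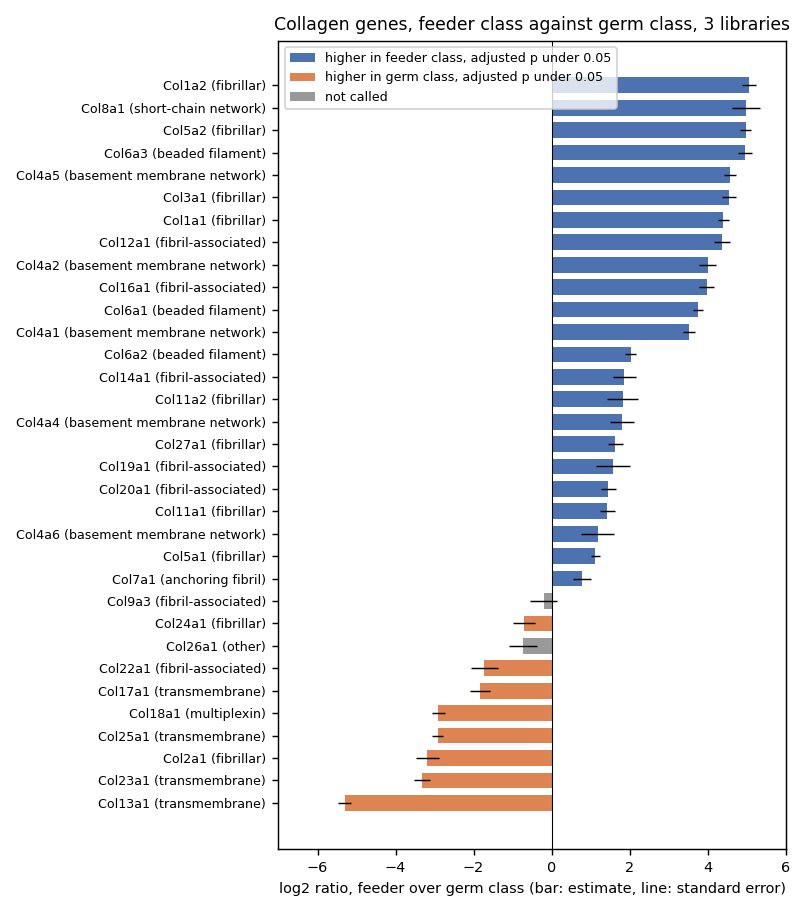
Horizontal bars give the log2 ratio of feeder to germ class for each of the 33 tested collagens, with the role in brackets and lines for the standard error of the fit over 3 libraries. Most fibrillar, network and filament chains extend to the right, up to 5.06 for Col1a2, with the fibrillar Col2a1 (−3.19) and Col24a1 (−0.70) on the left, and the 4 transmembrane collagens extend to the left, down to −5.30 for Col13a1.

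Among the fibrillar collagens, 8 of 10 tested were higher in feeder cells. Col1a2, the second chain of type I collagen (chr6:4504814-4541544, GRCm38, + strand), led with a log2 ratio of 5.06 (SE 0.18, adjusted p = 8.49e-08). It measured 214, 230 and 100 CPM in feeder cells of vehicle 1, vehicle 2 and EV 1, against 9.70, 7.29 and 12.3 CPM in germ cells. Its partner Col1a1 stood at 4.40 (SE 0.14), Col3a1 of type III at 4.54 (SE 0.18) and Col5a2, a type V chain that helps to start fibrils, at 4.97 (SE 0.15). For these 4 genes the germ level was 3.17–6.22% of the feeder level in the vehicle libraries. Fibroblast markers outside the class rule stood at 4.61% and 4.77% (Pdgfra), 8.45% and 6.21% (Vim), 11.9% and 10.0% (Fn1) and 27.5% and 22.6% (Thy1) there, and Fbn1, which passed in neither direction (adjusted p = 0.128), at 171% and 150%. In EV 1 the shares of Col1a2, Col3a1 and Col1a1 were 12.2%, 18.2% and 13.9%, from 4, 7 and 5 germ UMIs. Beside these stood 19.3% for Fn1, 19.2% for S100a6 and 11.99% for Vim. Thy1 stood at 44.3%, Pdgfra at 5.63% and Fbn1 at 183%, from 4, 2 and 3 germ UMIs. Pdgfrb had no germ UMI there. The part of free feeder RNA in the germ values was not tested. Col5a1, another type V chain, was higher in feeder cells by only 1.12 (SE 0.12, adjusted p = 3.60e-05), and its germ level was 60.2%, 64.2% and 52.6% of the feeder level in the 3 libraries, with 35.4, 37.9 and 27.6 CPM. The cartilage chain Col11a1 (log2 1.43, SE 0.18) and Col27a1 (1.64, SE 0.19) had germ levels of 39.7–58.4% of the feeder level in the vehicle libraries.

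The 2 fibrillar members on the germ side were Col2a1, the main collagen of cartilage, at −3.19 (SE 0.29, adjusted p = 6.27e-06), and Col24a1 at −0.70 (SE 0.29, adjusted p = 0.0476). Col24a1 lost its call with DESeq2 (adjusted p = 0.296) and kept its direction. Col2a1 had 71, 99 and 1 germ UMIs in vehicle 1, vehicle 2 and EV 1, and 8, 5 and 1 feeder UMIs.

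All 5 tested chains of the basement membrane network were higher in feeder cells. Col4a1 and Col4a2, which build the common type IV network, reached 3.52 (SE 0.16) and 4.00 (SE 0.21). Col4a5, which in other tissues pairs with Col4a3 and Col4a4 or with Col4a6, reached 4.58 (SE 0.15). Its 2 relatives Col4a4 (1.81, SE 0.31) and Col4a6 (1.18, SE 0.41, adjusted p = 0.0244) were rare, with 77 and 39 feeder UMIs in all against 2785 for Col4a5. The call of Col4a6 was lost without TMM (adjusted p = 0.138) and with DESeq2 (adjusted p = 0.255). All 3 tested type VI chains were higher in feeder cells, Col6a3 by 4.95 (SE 0.18), Col6a1 by 3.76 (SE 0.13) and Col6a2 by 2.03 (SE 0.14). Of 7 tested fibril-associated members 5 were higher in feeder cells, among them Col12a1 at 4.36 (SE 0.21) and Col16a1 at 3.97 (SE 0.19), which sit on fibril surfaces. The short-chain network collagen Col8a1 stood at 4.98 (SE 0.35). The anchoring fibril gene Col7a1 had the smallest difference called among those higher in feeder cells (0.79, SE 0.23, adjusted p = 0.0106), which was lost without TMM (adjusted p = 0.146) and with DESeq2 (adjusted p = 0.191). Col19a1, another fibril-associated member (1.57, adjusted p = 0.00835), was lost with DESeq2 (adjusted p = 0.118).

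All 4 collagens that stay in the membrane were higher in germ cells. Col13a1, found at adhesion sites of many cell types (chr10:61838236-61979108, − strand), measured 87.2, 89.7 and 39.9 CPM in germ cells and 1.79, 1.58 and 0.649 CPM in feeder cells (log2 −5.30, SE 0.16, adjusted p = 7.74e-08). Its germ and feeder values did not overlap in any library. Col23a1 was lower in feeder cells by −3.33 on the log2 scale (SE 0.20), Col25a1, known from neurons, by −2.92 (SE 0.15) and Col17a1, a component of hemidesmosomes, by −1.84 (SE 0.26). Col18a1, a basement membrane collagen whose end is the source of endostatin, followed the same side at −2.90 (SE 0.16) with 43.6, 41.4 and 70.6 CPM in germ cells. Col22a1, a fibril-associated member of tissue junctions, stood at −1.72 (SE 0.34, adjusted p = 0.00143). Thinned to 1000 UMIs per cell, 7.87% and 8.27% of germ cells of the vehicle libraries had a Col13a1 UMI, against 0.193% and 0.226% of feeder cells, and median depths before thinning were 1936 and 2099.5 UMIs in germ cells. For Col18a1 the shares were 4.18% and 3.81% of germ cells against 0.435% and 0.498% of feeder cells. Col25a1, Col23a1 and Col13a1 span 468, 294 and 141 kb, and the part of unspliced RNA in these counts was not tested. The spans of Col17a1 and Col2a1 were 45.8 and 29.1 kb.

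Within the feeder class the levels of 15 members with at least 200 UMIs were compared between EV 1 and the vehicle libraries. A difference was called where it was at least 2-fold and the distance of EV 1 from the nearer vehicle library exceeded the gap between vehicle 1 and vehicle 2. Differences are log2 ratios to the mean of the vehicle libraries, after 0.5 UMI was added to every sum. Of the 15 members, 11 were lower and 4 were higher in EV 1, with a median of −0.29, while 6381 of all 9420 genes with as many UMIs were lower, with a median of −0.15. Outside the vehicle range by this measure were 8 members on the low side and 2 on the high side, against 48.3% and 20.7% of all genes. A single collagen, Col1a2, was called lower and none was called higher, against 2.94% and 1.28% of all genes. With 1 EV library none of these counts comes from a test. The median depended on how feeder cells were chosen. With 8 fixed fibroblast markers in place of Sparc and Dcn it was −0.019, against −0.11 over all genes, and Col1a2, at −0.99, was no longer called. That setting brought 20 members past 200 UMIs, and the 1 called was not among the 15 compared here. Fewer collagen RNAs per cell and a changed mixture of feeder cells cannot be told apart in these sums.

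**Figure D2:**
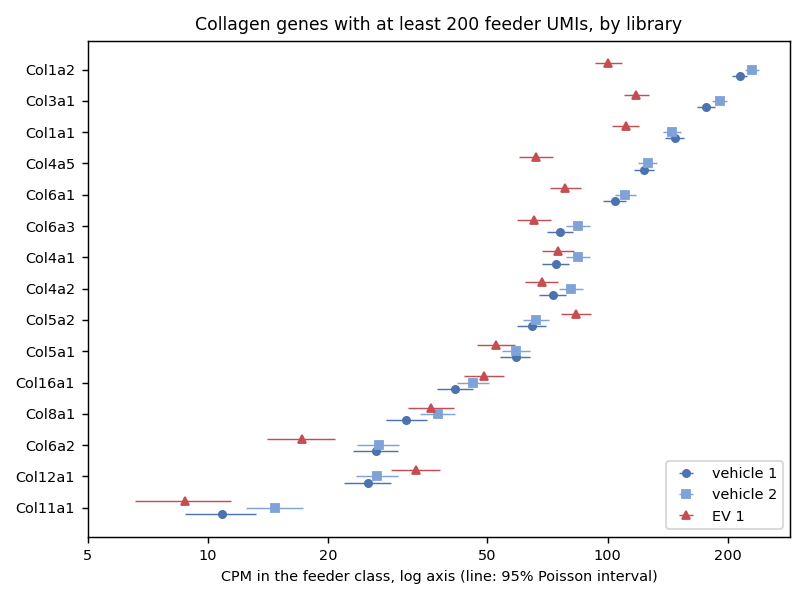
Points give CPM on a log axis in the feeder class of vehicle 1, vehicle 2 and EV 1 for the 15 collagens with at least 200 feeder UMIs, with 95% Poisson intervals. EV 1 lies left of both vehicle libraries for Col1a2, Col3a1, Col1a1 and Col4a5, and right of both for Col5a2 and Col12a1.

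The type I and III chains were lower in EV 1, to unequal degrees. Col1a2 measured 214 and 230 CPM in vehicle 1 and vehicle 2 and 100 CPM in EV 1, a log2 difference of −1.14 and a ratio of 0.452 (95% interval 0.415–0.492). Col3a1 measured 176 and 191 CPM against 118 CPM (−0.64, ratio 0.641, 0.591–0.695). Col1a1 measured 147 and 145 CPM against 111 CPM (−0.39, ratio 0.761, 0.699–0.828). None of these 3 intervals overlaps another. Of the type V chains, Col5a2 was higher in EV 1, at 64.6 and 66.2 CPM against 83.3 CPM (0.35, ratio 1.27, 1.15–1.41). Col5a1 measured 58.8 and 59.1 CPM against 52.6 CPM (−0.16), with a ratio interval that reached 1.01, though it was lower in cells of matched depth. Col11a1 measured 10.8, 14.7 and 8.76 CPM (−0.54), with EV 1 below both by less than the gap between them.

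The basement membrane chains split as well. Col4a5 (chrX:141475385-141689234) measured 123 and 126 CPM in the vehicle libraries and 66.2 CPM in EV 1, a log2 difference of −0.91 and a ratio of 0.531 (0.477–0.590). Col4a1 measured 74.2, 84.3 and 75.2 CPM (−0.08) and Col4a2 73.0, 80.9 and 68.3 CPM (−0.17). EV 1 was inside the vehicle range for Col4a1 and just below it for Col4a2. The 3 type VI chains compared were lower, although Col6a3 stood at 0.011 with the fixed fibroblast markers. Col6a2 measured 26.3 and 26.7 CPM against 17.2 CPM (−0.62), Col6a1 104 and 111 CPM against 78.4 CPM (−0.45) and Col6a3 75.9 and 84.2 CPM against 65.6 CPM (−0.29). Their intervals overlapped in part, with ratios of 0.648 (0.521–0.801), 0.729 (0.659–0.805) and 0.817 (0.730–0.912). Of the fibril-associated members, Col12a1 was higher in EV 1, at 25.1 and 26.5 CPM against 33.1 CPM (0.36). Col16a1 measured 41.5, 46.0 and 49.0 CPM (0.16), and the short-chain gene Col8a1 31.4, 37.6 and 36.2 CPM (0.07). Neither cleared the gap between the vehicle libraries.

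Feeder cells of EV 1 had fewer UMIs, and some collagen levels differed with depth within a library. Within each vehicle library Col5a2 and Col3a1 were higher in shallow cells. In vehicle 1 Col5a2 was 125 CPM in feeder cells under 2000 UMIs, 88.4 CPM at 2000 to 4000 and 52.0 CPM at 4000 to 8000. In vehicle 2 it was 125, 70.4 and 69.3 CPM. Col3a1 was 314, 203 and 161 CPM in vehicle 1 and 338, 232 and 178 CPM in vehicle 2. Col1a2 showed no such order, at 142, 217 and 225 CPM and at 228, 220 and 237 CPM. The part of depth in the differences between the arms was not tested. The comparison was therefore repeated in feeder cells of 2000 to 4000 UMIs, an alternative chosen after seeing the data. There Col5a2 measured 88.4, 70.4 and 80.7 CPM, inside the vehicle range, and Col12a1 measured 34.0, 31.8 and 30.5 CPM, on the low side. The higher level of both genes in EV 1 was thus not seen at matched depth. Col5a1 was lower there, at 66.8, 75.2 and 50.3 CPM (ratio 0.708, 0.584–0.856), beside 0.747 (0.658–0.845) for Col1a1. Col1a2 kept its difference, at 217, 220 and 98.3 CPM (ratio 0.450, 0.396–0.511). Col4a5 measured 135, 128 and 63.8 CPM (0.484, 0.412–0.568) and was then past 2-fold too. Col3a1 measured 203, 232 and 119 CPM (0.548, 0.486–0.616), with an interval that overlapped that of Col1a2 in these cells. In these cells 13 members were lower and 2 higher, with 6740 of 9420 genes lower, 11 were outside the vehicle range on the low side and 0 on the high side, against 41.6% and 14.7% of all genes, and the medians were −0.44 for the collagens and −0.20 for all genes.

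**Figure D3:**
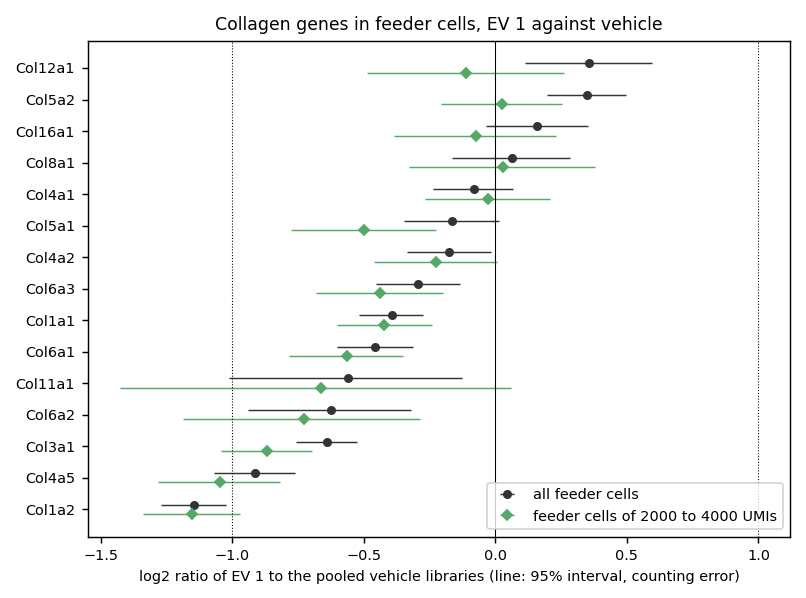
Points give the log2 ratio of EV 1 over the pooled vehicle libraries for 15 collagens, in all feeder cells (circles) and in feeder cells of 2000 to 4000 UMIs (diamonds), with 95% intervals for counting error and dotted lines at 2-fold. Col1a2 lies near −1.1 in both settings (−1.14 and −1.15 against the vehicle mean), while Col5a2 and Col12a1 move from 0.35 and 0.36 to 0.02 and −0.11.

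Ratios between 2 chains need no scaling by library totals. Since UMIs per gene are not levels per length, a ratio is read only across libraries. The UMI ratio of Col1a1 to Col1a2, whose proteins join in the same type I helix, was 0.687 (0.640–0.737) and 0.629 (0.589–0.672) in feeder cells of the vehicle libraries and 1.10 (0.988–1.23) in EV 1. In unassigned cells, those that met neither condition of the class rule, it was 0.701, 0.628 and 1.06. The EV 1 value was thus above both vehicle values in each of these sets of cells, without overlap of intervals. The ratio of Col5a2 to Col1a2 was 0.302, 0.288 and 0.829 in feeder cells and 0.522, 0.610 and 1.46 in unassigned cells. Col5a2 to Col5a1 was 1.10, 1.12 and 1.58 in feeder cells and 0.770, 1.04 and 1.76 in unassigned cells. By contrast, Col4a1 to Col4a2 was 1.02, 1.04 and 1.10 in feeder cells, with intervals that overlapped in all 3 libraries. In unassigned cells it was 1.28, 0.782 and 1.03, where the vehicle libraries themselves did not overlap. Col6a1 to Col6a2 was 3.95, 4.14 and 4.56, also with overlap. A ratio shows only that 2 chains differed by unequal amounts. The ratios were not computed at matched depth. Since Col5a2 differed with depth within the vehicle libraries, its ratios can carry depth too, and that part was not tested.

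**Figure D4:**
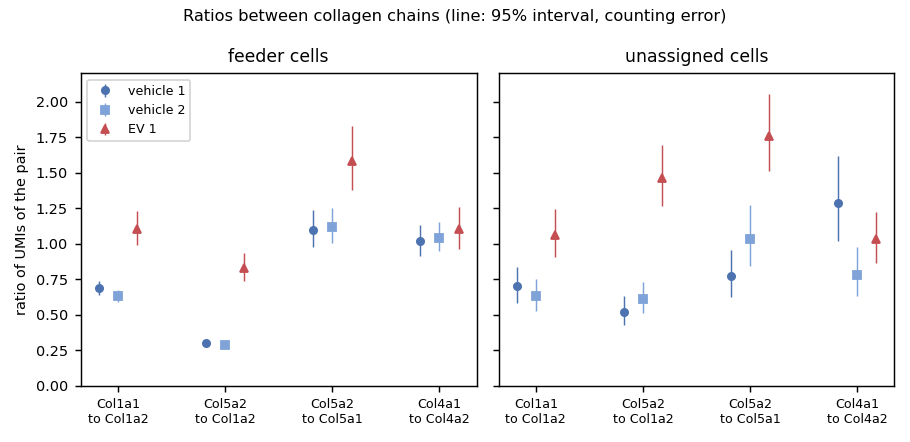
Points give the ratio of UMIs of 2 collagen chains in feeder cells (left) and unassigned cells (right) of each library, with 95% intervals. EV 1 is above both vehicle libraries for Col1a1 to Col1a2, Col5a2 to Col1a2 and Col5a2 to Col5a1, and overlaps them for Col4a1 to Col4a2 in feeder cells (1.10 against 1.02 and 1.04).

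The genes of this type IV pair are neighbours. Col4a1 and Col4a2 lie head to head on chromosome 8, and their annotated starts are 21 bases apart so that the annotated genes overlap. Col4a3 and Col4a4 on chromosome 1 have starts 72 bases apart, and Col4a5 and Col4a6 on the X chromosome have starts 1309 bases apart. The UMI ratio of Col4a5 to Col4a6 in feeder cells was 65, 90.9 and 51, with wide and overlapping intervals, since Col4a6 had 17, 14 and 8 UMIs. The promoter windows of Col4a1, from a pair that differed little between the arms, and of Col1a2, which differed most between the arms among the 15 members with at least 200 feeder UMIs, are shown here as RefSeq gives them for GRCm38.p6, 5′ to 3′ on the strand of the gene, in windows of 300 bases that end shortly after the RefSeq start. The RefSeq start of Col1a2 lies inside the gene as GENCODE annotates it. Capitals mark CCAAT on either strand (ATTGG where it is on the other strand).
Col1a2 (chr6:4505368-4505667, + strand): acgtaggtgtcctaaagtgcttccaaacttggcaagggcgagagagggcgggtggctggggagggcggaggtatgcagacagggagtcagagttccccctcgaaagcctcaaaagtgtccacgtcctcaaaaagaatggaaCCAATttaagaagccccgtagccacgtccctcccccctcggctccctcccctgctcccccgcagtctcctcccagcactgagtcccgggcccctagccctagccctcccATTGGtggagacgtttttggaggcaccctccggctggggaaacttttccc
Col4a1 (chr8:11312777-11313076, − strand): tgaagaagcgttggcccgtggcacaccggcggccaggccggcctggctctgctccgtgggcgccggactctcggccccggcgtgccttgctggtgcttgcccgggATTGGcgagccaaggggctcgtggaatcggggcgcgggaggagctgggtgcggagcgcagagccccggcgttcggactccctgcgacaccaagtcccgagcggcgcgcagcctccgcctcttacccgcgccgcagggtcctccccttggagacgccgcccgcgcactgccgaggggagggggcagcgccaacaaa
The Col1a2 window held 1 CCAAT and 1 ATTGG, and the Col4a1 window 1 ATTGG. Windows were at hand for 35 of 44 members. CCAAT on either strand was in 13 of these (37.1%), against 41.1% of 27025 genes, each gene counted over all of its windows, and TATAAA in 5 (14.3%), against 15.7%. GGGCGG was in 22 (62.9%), against 38.2%. These matches are descriptions of the letters in the windows and show no binding.

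The vesicles were studied as carriers of let-7b and let-7c, miRNAs that pair with messenger RNAs through bases 2 to 8, the seed. The mature sequences from RefSeq are shown because several collagen transcripts hold a match to them, with the seed in capitals.
mmu-let-7b-5p: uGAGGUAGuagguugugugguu
mmu-let-7c-5p: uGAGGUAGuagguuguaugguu
The seed is the same in both (GAGGUAG), and its match in a transcript is CTACCTC. In the longest annotated 3′ UTR of each gene (GRCm38, GENCODE vM21), this match was found in 9 of 44 members (20.5%), against 1873 of 20817 genes. Among the 15 members compared between the arms it was in 4 (26.7%), against 10.1% of 9036 genes, and each of the 4 had 1 site. These are the 4 windows of 30 bases, 5′ to 3′ on the strand of the gene, with the match in capitals.
Col1a2 site: aacttccaaaggtttgaaCTACCTCaagac
Col3a1 site: tcctcctccctatgttaaCTACCTCaactg
Col1a1 site: aattgtgttgctgaaagaCTACCTCgttct
Col5a2 site: aacatttcttagcatgacCTACCTCatctc
They lie at chr6:4541059-4541088, chr1:45349132-45349161, chr11:94952387-94952416 and chr1:45375097-45375126. The annotation of each window is 3′ UTR, and the match was followed by an A in Col1a2, Col3a1 and Col5a2. In feeder cells these 4 genes differed between the arms by −1.14, −0.64, −0.39 and 0.35, so that 3 were lower and 1 was higher in EV 1. Their median was −0.52, and that of the 11 collagens without a match −0.17. Over all genes the medians were −0.15 with and −0.15 without a match. Col4a5, without a match, differed by −0.91, more than Col3a1 and Col1a1 did. A match is no proof of a site in use, and its part in these differences was not tested.

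A UMI of any collagen was found in 65.4%, 69.4% and 59.5% of feeder cells of vehicle 1, vehicle 2 and EV 1 when each cell was thinned to 1000 UMIs, with 59, 40 and 137 shallower cells left out. Before thinning the shares were 92.6%, 94.4% and 83.6%. In germ cells the thinned shares were 28.4%, 28.8% and 41.3%, the last over 179 cells (34.0–48.9), and before thinning 49.8%, 50.2% and 49.8%. For Col1a2 the thinned shares of feeder cells were 16.1% (14.6–17.8), 18.4% (16.8–20.1) and 8.57% (7.40–9.86), against 0.817%, 0.620% and 1.68% of germ cells. For Col1a1 they were 13.1%, 13.4% and 10.3%, and for Col5a2 7.15%, 7.06% and 7.70%. Thus fewer feeder cells of EV 1 showed Col1a2, and the share with Col5a2 had overlapping intervals in all 3 libraries.

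In germ cells EV 1 was measured in 227 cells, and its values rest on few UMIs. Col13a1 had 827, 996 and 13 germ UMIs, or 87.2, 89.7 and 39.9 CPM, a ratio to vehicle of 0.451 (0.240–0.773). Col18a1 measured 43.6, 41.4 and 70.6 CPM from 413, 460 and 23 UMIs (ratio 1.67, 1.05–2.52). Col25a1 measured 37.9, 40.1 and 70.6 CPM from 359, 445 and 23 UMIs (1.81, 1.14–2.73). Of the 3 leading germ collagens 1 was thus lower and 2 were higher in EV 1, each with an interval that excludes 1. Fibroblast markers also differed in the germ class, in both directions. The fibroblast list summed to 1130, 882 and 2580 CPM there. Its EV 1 ratios were 2.91 for S100a6, 2.09 for Vim, 1.76 for Fn1 and 1.70 for Thy1, the last from 4 UMIs. Pdgfra, Fbn1 and Pdgfrb had ratios of 0.781, 0.762 and 0, from 2, 3 and 0 UMIs. The intervals of Thy1, Pdgfra, Fbn1 and Pdgfrb included 1. The part of feeder RNA in the collagen values was not tested. Col22a1 had 69, 94 and 10 UMIs (3.88, 1.83–7.32). Col23a1 had 161, 213 and 7 UMIs, with a ratio of 1.18 (0.473–2.46). For Col17a1, Col24a1, Col26a1, Col2a1 and Col9a3 EV 1 had between 1 and 4 germ UMIs, and every interval included 1. The germ cells of EV 1 are also 4.75% of the cells of that library, against 53.6% and 55.5%, and they were shallower (a median of 1322 UMIs against 1936 and 2099.5). Over the 7 collagens with at least 200 germ UMIs the median log2 difference was 0.35, and over all 9697 such genes 0.01.

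The remaining 29 members had under 200 feeder UMIs and are given by their counts. In feeder cells 9 of them had at least 50 UMIs over the 3 libraries, from 181 for Col27a1 and 141 for Col20a1 to 51 for Col22a1, and 20 had fewer. Col20a1, of the fibril-associated group, measured 6.36, 6.23 and 3.41 CPM (ratio 0.542, 0.323–0.866). Col9a3, a minor collagen of cartilage, had 21, 30 and 3 UMIs, a ratio of 0.182 (0.0363–0.563). Col14a1, which lies on fibril surfaces, had 23, 28 and 25 UMIs (1.52, 0.901–2.49). The 11 members too rare for the fit had between 6 (Col10a1) and 75 UMIs (Col6a6) over all classes. Of these, Col6a6 (58 germ and 6 feeder UMIs), Col8a2 (52 and 3) and Col9a2 (21 and 0) had most of their UMIs in germ cells, while Col28a1 (6 and 23) and Col4a3 (6 and 18) had more in feeder than in germ cells.

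Collagen chains need a set of helpers, and a list of 62 such genes was read beside them. Of 57 with enough counts, 45 were higher in feeder than in germ cells and 6 were higher in germ cells, against 40.3% and 38.9% of all genes. Serpinh1, the chaperone of the collagen helix, stood at a log2 ratio of 3.26 (SE 0.12), the crosslinking enzyme Lox at 4.03 (SE 0.14) and the collagen receptor Ddr2 at 4.04 (SE 0.17). Those higher in germ cells were Adamts3, Pcolce2 and Tll2 of propeptide removal, the crosslinking enzyme Loxl2, the glycosyltransferase Colgalt2 and the receptor Ddr1.

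In feeder cells 43 genes of the list had at least 200 UMIs, of which 25 were lower and 18 higher in EV 1, a smaller share lower than the 6381 of 9420 over all genes (median −0.27 against −0.15). At least 2-fold lower were Mmp9, a gelatinase, at 13.6, 10.4 and 2.27 CPM (−2.36), and Timp3, an inhibitor of matrix proteases, at 131, 129 and 48.2 CPM (−1.43). At least 2-fold higher were Thbs1, a matrix glycoprotein, at 12.9, 12.2 and 42.4 CPM (1.75), Tll1, a procollagen C-proteinase, at 9.82, 8.11 and 26.8 CPM (1.57), and Plod2, which hydroxylates lysines of collagen, at 213, 235 and 448 CPM (1.00). The shares over all genes are those given above, 2.94% and 1.28%. Of 14 hydroxylation and folding genes compared, 7 were lower and 7 higher. The proline 4-hydroxylase genes P4hb, P4ha1 and P4ha2 stood at 0.39, 0.59 and 0.61 and the proline 3-hydroxylase genes P3h1, P3h2 and P3h3 at −0.29, −0.55 and −0.66, of which P3h2 did not clear the gap between the vehicle libraries and the ratio interval of P3h1 included 1, whereas the chaperone Serpinh1 stood at −0.72, at 228, 236 and 141 CPM, and the prolyl isomerase Ppib at −0.22. Among crosslinking enzymes Lox measured 90.2, 103 and 158 CPM (0.71) and Loxl1 99.2, 91.6 and 55.3 CPM (−0.78), so that the 2 members with the most UMIs differed in opposite directions. Of propeptide removal, Pcolce, which enhances that cleavage, stood at −0.58 and Bmp1 at −0.56. Export genes with the most UMIs stood at −0.27 (Mia3) and 0.03 (Mia2), and the 6 export genes compared ranged from −0.27 to 0.39.

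Of the fibril partners, fibronectin (Fn1) measured 1156, 1216 and 1176 CPM (−0.01) and the proteoglycan Bgn 422, 428 and 259 CPM (−0.72). Of the receptors, the integrin chain Itgb1 stood at 0.41 and Ddr2 at −0.30. All 4 proteases with enough UMIs were lower in EV 1, with Mmp3 at −0.51 and Mmp14 at −0.82 beside Mmp9. Their inhibitors Timp1 and Timp2 differed in opposite directions, at 0.74 and −0.68. Fibroblast markers of the feeder class moved in both directions beside the collagens. The growth factor receptors Pdgfrb and Pdgfra stood at −1.41 and −0.62, while S100a6 and the filament gene Vim stood at 0.47 and 0.34. Sparc and Dcn, at 0.02 and −0.15, chose the class and are no reference for these values. The part of the feeder cell mixture in the collagen differences was not tested.

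**Figure D5:**
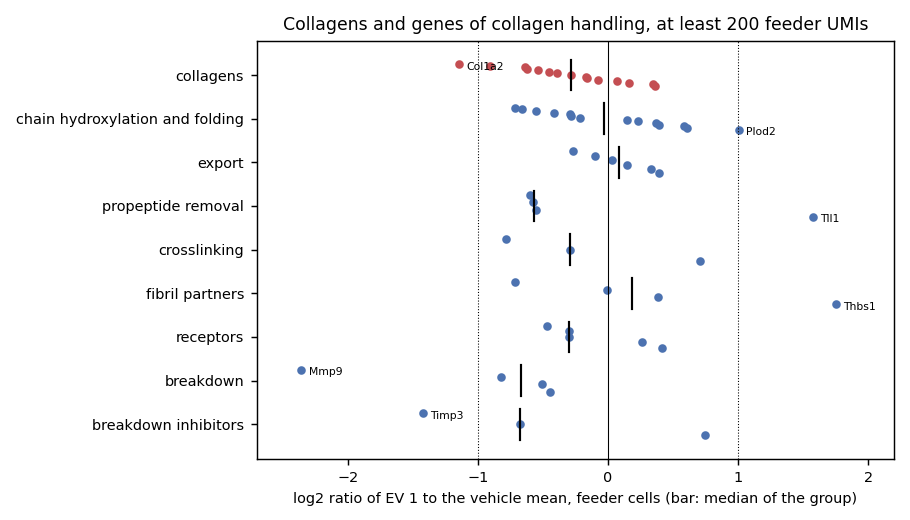
Points give log2 differences between EV 1 and the mean of the vehicle libraries in feeder cells for 15 collagens and 43 genes of collagen handling, each with at least 200 feeder UMIs, and bars give group medians. Collagens have a median of −0.29, proteases of −0.67 and chain hydroxylation and folding of −0.04, and the dotted lines at 2-fold are passed by the named genes.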

How the data were processed

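UMI counts per gene and cell barcode were deposited by the authors as raw counts, made with Cell Ranger 7.0.1 on mm10 (GENCODE vM23). The study's filter was applied (genes above 400 and below 4000, mitochondrial UMIs below 10%), and the highest Scrublet scores (scanpy 1.11.5) were removed at 0.8% per 1000 cells, which left 8263, 8637 and 4779 cells of vehicle 1, vehicle 2 and EV 1. Libraries shared at most 22 barcodes and held 23686047, 27444797 and 10793232 UMIs as deposited.

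Counts were summed per library and class. CPM carry exact Poisson intervals, ratios exact conditional and shares exact (Clopper-Pearson) binomial intervals, at 95%. Feeder and germ sums were compared with edgeR 4.0.16 (R 4.3.3, TMM, library and class in the model, standard errors from the F statistic), with DESeq2 1.42.0 as an alternative. The fit and the ratios were tested on simulated data. Gene positions come from GENCODE vM21 on the same build (GRCm38), matched by identifier. Values by library are given for members with at least 200 feeder UMIs, for members with at least 20 germ UMIs that were above the feeder level in every library, and, of the pathway list, for genes at least 2-fold different and the 2 with the most UMIs per role. Other genes and the chain pairs named were chosen after their values were seen. The members and lists were chosen with earlier results of these data known.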

Additional observations from a re-analysis of the deposited data

Results flagged for a closer look

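Cells that met neither class rule carry collagen RNA that the comparisons do not use. In EV 1 the 44 collagens took 0.121% of the UMIs of unassigned cells (95% interval 0.117–0.124), above the 0.104% and 0.108% of the vehicle libraries and opposite in direction to the feeder class. This was so in unassigned cells under 2000 UMIs, at 0.0990%, 0.0970% and 0.133% in vehicle 1, vehicle 2 and EV 1, while in those of 2000 to 4000 UMIs EV 1 was the lowest, at 0.119%, 0.123% and 0.107%. The value drew attention because it is a signal in data outside the main comparison that exceeds the level in the control libraries. These cells were 49.2% of the cells of EV 1, against 20.6% and 18.5%, and their median depth was 1240 UMIs against 1405 and 1501.5. By role, fibrillar members measured 457, 463 and 535 CPM and beaded filament members 131, 128 and 178 CPM, while the transmembrane members, which were higher in germ cells, measured 63.8, 66.1 and 21.5 CPM. Single genes followed both patterns, with Col5a2 at 55.9, 69.9 and 130 CPM and Col1a2 at 107, 115 and 89.0 CPM. Marker genes also differed between the libraries in unassigned cells. Dazl, Epcam and Sparc are genes of the class rule, which limits their counts in these cells. They are no reference for the collagen values. Dazl measured 70.9, 56.6 and 5.94 CPM and Epcam 61.6, 52.1 and 6.78 CPM, while Sparc measured 42.8, 43.7 and 72.1 CPM and Fn1 728, 794 and 1122 CPM. S100a6 and Vim were 1.69 and 1.62 times the vehicle level, Pdgfra was 0.985 times and Pdgfrb 0.666 times. The part of the cell mixture in these values was not tested.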

How the results depend on the processing

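No paired analysis was possible because the EV arm has 1 library with counts and the difference between the arms comes from no test. Under 16 alternatives, 4 of them chosen after seeing the data, 9 of the 11 collagens lower in feeder cells of EV 1 stayed below 0, among them Col1a2 (−1.22 to −0.99), Col4a5 (−1.10 to −0.67) and Col3a1 (−0.87 to −0.48). Col5a2 stayed above 0 (0.02 to 0.65). Col4a1 ranged from −0.17 to 0.048 and Col8a1 from −0.057 to 0.29, across 0. Col12a1 (−0.11) and Col16a1 (−0.076) reversed in cells of 2000 to 4000 UMIs, and Col6a3 (0.011) with 8 fixed fibroblast markers in place of Sparc and Dcn.

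The collagen median of −0.29 became −0.20 without doublet removal, −0.40 with a marker sum of at least 4, −0.37 in cells of 2000 UMIs or more, −0.20 with TMM, −0.18 with DESeq2 size factors, and −0.36 to −0.21 with 1 vehicle library left out. It became −0.12 in cells without a germ marker UMI, −0.019 with the fixed fibroblast markers, −0.048 with the 5 of them outside the matrix and −0.44 at 2000 to 4000 UMIs. The median of all genes was −0.06 with TMM, −0.04 with DESeq2 size factors and −0.11 with the fixed markers. The count of collagens at least 2-fold lower rose from 1 to 2 with a marker sum of at least 4 and in cells of 2000 UMIs or more. It was also 2 at 2000 to 4000 UMIs. Col4a5 was past 2-fold too in these settings, at −1.10, −1.02 and −1.05. The count was 2 as well with a minimum of 50 UMIs, with 24 members compared, and with the non-matrix markers, with 20. Col4a5 stood at −0.91 and −0.69 there. At 2000 to 4000 UMIs the share of all genes so called was 3.91%, against 2.94% in the main setting. That share is not given here for the other settings, so their counts are not read as a result about the collagens. Under the fixed markers Col1a2 was at −0.99, short of 2-fold, and the 1 collagen called was not among the 15 compared, since 20 passed 200 UMIs.

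The collagen share of feeder UMIs was 0.140%, 0.147% and 0.109% as a mean over cells, 0.136% and 0.0955% in vehicle 2 and EV 1 at 2000 UMIs or more, and in EV 1 0.0939% with a marker sum of at least 4 and 0.109% without a germ marker UMI. Feeder cells with a collagen UMI were 86.4%, 85.8% and 78.1% at 2000 UMIs and 92.6%, 94.4% and 83.6% without thinning. The summed germ level was 28.3% and 26.2% of the feeder level in the vehicle libraries, 26.7% and 25.2% with no UMI of the other markers, and 29.6% and 28.0% without doublet removal. In EV 1 it was 46.3%, with 47.4% and 47.9% under the same alternatives. Collagens higher in feeder cells numbered 20 to 24 and those higher in germ cells 7 to 10 under all 9 alternatives of that test. Depth limits the germ class of EV 1 most, with 325611 UMIs. The causes of these shifts were not tested.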
